A study of Rattus norvegicus with 32 samples.

Results

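The hippocampal transcriptome of iron-sufficient male rats whose dams had received supplemental choline (ISch) was compared with that of iron-sufficient males without the supplement (IS). The libraries were chosen by their labels for sex, diet and sequencing batch, which gave 8 of the 32 libraries of the series, 4 ISch and 4 IS. The study asked how early iron deficiency and prenatal choline affect the adult hippocampus, and this comparison addresses the effect of choline where iron was never short. All animals were Sprague-Dawley rats, and hippocampal RNA was taken at postnatal day (P) 65, with a single male per litter by the account of the study. The dams of both groups were fed 200 mg of iron per kg of diet. The diet of the ISch dams held 5.0 g of choline per kg for part of gestation, and that of the IS dams 1.1 g per kg. For comparison, 4 formerly iron-deficient males with prenatal choline (FIDch) and 4 without (FID), whose dams had received 4 mg of iron per kg from gestation into the first days after birth, were set beside them. So were 4 ISch and 4 IS females of the same age, which had been sequenced in another batch, so that sex and batch cannot be told apart. Neither of these comparisons shares a library with the male ISch and IS rats.

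Choline is an essential nutrient that cells take up through transporters such as Slc44a1. It is phosphorylated and built into phosphatidylcholine, the main phospholipid of membranes, and in cholinergic neurons it is acetylated to the transmitter acetylcholine. Oxidised to betaine, it also passes a methyl group to homocysteine and so feeds the methionine cycle, which supplies S-adenosylmethionine to the enzymes that methylate DNA and histones. The gene lists follow these fates of choline, and also cover the synaptic, growth factor, mitochondrial and cell type genes of the hippocampus.

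The counts per library summed to 8030946, 6992057, 6655242 and 6825134 in IS replicates 1 to 4 and to 8352157, 8387006, 7984868 and 9517503 in ISch replicates 1 to 4. A count of 0 allows up to 3 counts, which in these libraries corresponds to 0.315 to 0.451 CPM (the count scaled by the total of the library) and covers counting error only. Between 17789 and 18316 genes had at least 1 count in a library. Levels are given as CPM scaled by edgeR's TMM factors, and they are compared between libraries, not between genes, since they are not divided by gene length.

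Some of the libraries stood apart from the others. On the first principal component of log2 CPM, which held 29.7% of the variance, IS replicate 1 lay at -35.1 and the other 7 libraries between -8.99 and 16.5. On the second component, which held 16.8%, ISch replicates 1 and 2 lay at 14.5 and 18.0, IS replicate 1 at 10.4, and the other 5 libraries between -12.8 and -3.17. ISch replicates 1 and 2 are also the 2 whose library names carry an additional number, the same in both, unlike those of the other 6. Whether they share a litter or a preparation cannot be told from the labels. The fits were repeated without these libraries. Of the 93 named genes at the criterion, 35 missed it without ISch replicates 1 and 2, and the values without them are given for part of these.

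Of 13956 genes tested, 1125 (8.06%) differed between ISch and IS at the criterion of the study, which asks for an unadjusted p under 0.05 together with a log2 fold change beyond 0.2 in either direction. Because this p is not adjusted for the number of genes tested, genes without a difference can also meet the criterion. Higher counts in ISch were found for 631 genes (4.52%) and lower counts for 494 (3.54%). The differences were small, with a median absolute log2 fold change of 0.36 (standard errors, SE, are given with the single genes) among the 1125 genes and 62 genes beyond 1. An adjusted p under 0.05, from the quasi-likelihood test of edgeR adjusted by Benjamini and Hochberg (BH) over all genes tested like every other adjusted p, was found for 29 genes (0.208%), 11 higher and 18 lower. In all 29 the ISch and IS values did not overlap, against 44.9% of the genes at the criterion and 6.14% of those tested. Since the 29 were chosen by a p from the same values, this separation adds no support. In the 631 higher genes, the lowest of the 8 values was that of IS replicates 1 to 4 in 409, 84, 73 and 63 genes (64.8%, 13.3%, 11.6% and 9.98%). Over all genes tested these shares were 25.5%, 9.49%, 14.1% and 9.8%. The highest was that of ISch replicates 1 to 4 in 274, 160, 96 and 97 of the higher genes (43.4%, 25.4%, 15.2% and 15.4%). Over all genes these were 12.7%, 9.59%, 8.71% and 9.96%. Since these genes were chosen as higher in ISch, only the division among the replicates of a group can be read. Without IS replicate 1, 820 genes met the criterion, 413 of them higher, and 607 of these 820 were among the 1125. Without ISch replicates 1 and 2 together, 679 genes met it, 286 of them higher, and 403 were among the 1125. The number with an adjusted p under 0.05 was 28 and 12 in these 2 fits. All 29 genes met the criterion in each of the 17 alternatives. Of the 29, 20 lost their adjusted p without ISch replicates 1 and 2, which leaves 2 ISch rats, but their log2 fold changes there were 0.789 to 1.13 times those with all 8 libraries. Without IS replicate 3, 1811 genes met the criterion.

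The mitochondrially encoded genes were the list with the highest share of members at the criterion. These 13 genes lie on the mitochondrial genome and encode subunits of complexes I, III and IV and of the ATP synthase. All 13 were tested, and 11 (84.6%) met the criterion, 9 lower and 2 higher in ISch, against 8.06% of all genes. Their median log2 fold change was -0.26, against -0.00 over all genes tested. The counts were also 9 lower and 2 higher with RLE size factors or with library size alone, and they were 9 and 1 without ISch replicates 1 and 2. Together, the 13 genes took 6.85% to 7.70% of the counts in the IS rats and 5.95% to 6.65% in the ISch rats, so that the groups did not overlap.

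Among the complex I subunits, Mt-nd2 (ENSRNOG00000031033) had 8914, 8504, 8657 and 7916 CPM in the 4 IS rats and 5709, 4945, 5419 and 5129 CPM in the 4 ISch rats. Every ISch rat was thus below every IS rat, with a log2 fold change of -0.68 (SE 0.053, adjusted p = 0.000149, edgeR), the smallest adjusted p of the comparison. Mt-nd1 (ENSRNOG00000030644) had 7428, 7024, 7171 and 6196 CPM in IS and 4989, 4391, 4854 and 4644 CPM in ISch. It was lower in ISch by a log2 fold change of -0.56 (SE 0.059, adjusted p = 0.00177, edgeR), again without overlap. Mt-co3 (ENSRNOG00000030700), a subunit of cytochrome c oxidase (complex IV), had 10493, 9508, 9863 and 9294 CPM in IS and 7182, 6907, 7241 and 6884 CPM in ISch. Its log2 fold change was -0.47 (SE 0.044, adjusted p = 0.000747, edgeR), and the ISch rats lay close together below the IS rats. These 3 genes had an adjusted p under 0.05 under each of the 17 alternatives, and without ISch replicates 1 and 2 it was 0.00725 for Mt-nd2 and 0.0318 for Mt-nd1 and Mt-co3 (edgeR). Mt-nd3, Mt-nd4, Mt-nd5, Mt-nd6 and Mt-cyb, the last of complex III, met the criterion with log2 fold changes from -0.43 to -0.21 but had no adjusted p under 0.05. With 1 library left out, Mt-nd6 met the criterion in 2 of 8 fits and Mt-nd5 in 6, and the other 3 did so in all 8. They and the remaining members of the list are named after their values were seen.

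The subunits of the ATP synthase went opposite ways. Mt-atp6 (ENSRNOG00000031979) had 9669, 9042, 9355 and 8462 CPM in IS and 7669, 6771, 7538 and 7250 CPM in ISch, without overlap. Its log2 fold change was -0.32 (SE 0.051, adjusted p = 0.0202, edgeR). Mt-atp8 (ENSRNOG00000033299), whose reading frame overlaps that of Mt-atp6 on a shared transcript, had 522, 549, 549 and 481 CPM in IS and 705, 641, 714 and 715 CPM in ISch. All ISch rats were above all IS rats, with a log2 fold change of 0.40 (SE 0.058, adjusted p = 0.0109, edgeR). Since the 2 genes overlap, the division of reads between them is uncertain. Without ISch replicates 1 and 2 their log2 fold changes were -0.31 and 0.44, at the criterion, but the adjusted p was 0.292 for Mt-atp6 and 0.0784 for Mt-atp8 (edgeR), and the ranges over all alternatives were 0.000353 to 0.292 and 1.12e-06 to 0.087 in the same order. Mt-co2 was higher in ISch at the criterion with a log2 fold change of 0.20 (SE 0.056), and it missed the criterion in 3 of the 8 fits that left out 1 library. Mt-co1, the other catalytic core subunit of complex IV, had a log2 fold change of 0.07 (SE 0.047), and Mt-nd4l one of -0.01 (SE 0.099). Neither met the criterion.

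**Figure D1:**
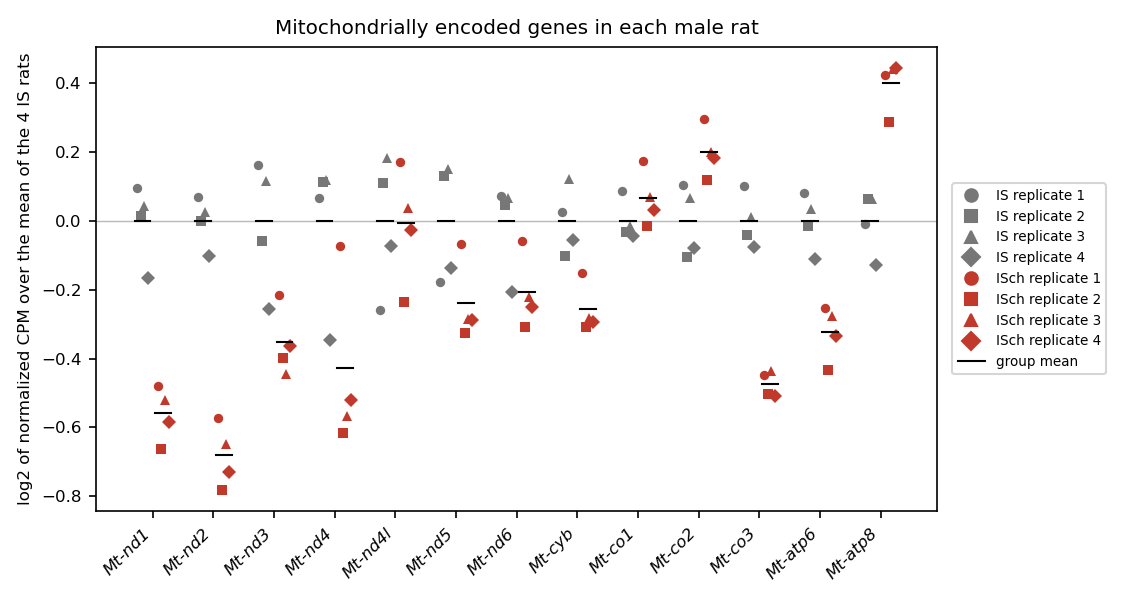
Levels of the 13 mitochondrially encoded genes in each male rat, as the log2 of normalized CPM over the mean of the 4 IS rats; grey symbols are IS rats, red symbols are ISch rats, and black lines are group means. Mt-nd1, Mt-nd2, Mt-co3, Mt-atp6 and Mt-cyb lie lower in every ISch rat than in every IS rat, and Mt-atp8 and Mt-co2 lie higher.

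In formerly iron-deficient males, the log2 fold change of FIDch against FID was -0.18 (SE 0.11) for Mt-nd2, -0.05 (SE 0.088) for Mt-nd1 and -0.21 (SE 0.084) for Mt-co3, of which Mt-co3 met the criterion. FIDch replicate 2, whose library name has the form of those of ISch replicates 1 and 2, had 3515806 counts, the fewest of the 32 libraries, and 5.82% of them on the mitochondrially encoded genes, against 6.71% to 6.87% in the other 3 FIDch rats. Without it the log2 fold changes were -0.05 for Mt-nd2, 0.05 for Mt-nd1 and -0.11 for Mt-co3, and none of the 3 met the criterion. The tests of the difference between the 2 effects of choline gave an adjusted p = 0.145 for Mt-nd2, 0.132 for Mt-nd1 and 0.23 for Mt-co3 (edgeR), so that a difference was not shown. Mt-atp8 was higher in FIDch than in FID as well, with a log2 fold change of 0.54 (SE 0.063, adjusted p = 0.00541, edgeR). Mt-nd3 was lower there, with a log2 fold change of -0.34 (SE 0.074, adjusted p = 0.047, edgeR) that was -0.28 and no longer had an adjusted p under 0.05 without FIDch replicate 2, and so were Mt-nd5 (-0.25) and Mt-nd6 (-0.29) at the criterion. For these 4 genes too, a difference between the 2 effects was not shown (adjusted p from 0.432 to 0.995, edgeR). Of the 13 genes, 4 were lower and 1 was higher at the criterion in FIDch against FID, where 13% of all genes met it, and 0 were lower and 1 was higher in female ISch against IS, where 10.3% did. For Mt-nd2, Mt-nd1 and Mt-co3 the effect differed between the male and the female rats (adjusted p = 0.000867, 0.0128 and 0.00305, edgeR). Mt-nd6, which is encoded on the opposite strand from the other 12 genes, had 1207 to 1480 CPM of the library total in male IS rats and 27.1 to 32.5 in female IS rats. Mt-nd4, which is not on that strand, also differed, with a mean of 395 CPM in male and 42.1 CPM in female IS rats. Whether the reads were counted by strand is not given in the sources used here, and the part of counting in these differences between the sexes and batches was not tested.

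Of the nuclear-encoded subunits of the respiratory chain and ATP synthase, 76 were tested, and 1 was higher and 4 were lower at the criterion (6.58% against 8.06% of all genes). Their median log2 fold change was -0.08, and 55 of the 76 had a negative value. The higher member was Cox6b1 (ENSRNOG00000034161), a complex IV subunit whose symbol is carried by 2 genes of the table. It had 33.9, 29.5, 27.6 and 31.0 CPM in IS and 43.9, 44.8, 46.0 and 40.7 CPM in ISch. The groups did not overlap, and the log2 fold change was 0.52 (SE 0.083, adjusted p = 0.0199, edgeR). Without ISch replicates 1 and 2 its log2 fold change was 0.50 and its adjusted p 0.371, the upper end of the alternatives from 2.39e-05 to 0.371 (edgeR and DESeq2). Ndufb8 of complex I (-0.24, SE 0.084) and Uqcrq (-0.29, SE 0.12) and Uqcrb (-0.22, SE 0.095) of complex III were lower at the criterion on the log2 scale. The symbol Uqcrb, like Cox6b1, is carried by 2 genes of the table, and the division of reads between such genes was not tested. Without IS replicate 1, 0 members were lower and 4 were higher in edgeR's test. With each library left out in turn, 0 to 12 members were lower and 1 to 4 higher.

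Of the 29 genes with an adjusted p under 0.05, 17 (58.6%) carried a sequence record, LOC or RGD designation in place of an established gene name, against 9.97% of all genes tested and 18.1% of those at the criterion. This grouping by name was made after the values had been seen. In RefSeq's annotation of assembly GRCr8, 12 of the 29 could be found by name, and 4 of these 12 were pseudogenes, against 71 of the 12845 tested genes that could be found (0.553%). Pseudogenes of ribosomal proteins are near-identical copies of their parent genes, and the counting could divide reads between a parent and its copies, so their values are uncertain.

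Rpl17 and a copy of it changed in opposite directions. Rpl17 (ENSRNOG00000018680), a protein of the large ribosomal subunit, had 133.7, 112, 62.1 and 82.4 CPM in IS and 43.7, 49.4, 48.2 and 50.0 CPM in ISch. All ISch rats lay below all IS rats, which were widely spread, with a log2 fold change of -1.03 (SE 0.18, adjusted p = 0.0398, edgeR). RGD1359290 (ENSRNOG00000027271), listed by RefSeq as the pseudogene Rpl17-ps16, had 20.2, 16.8, 21.7 and 24.5 CPM in IS and 39.8, 39.9, 37.6 and 35.3 CPM in ISch. Its log2 fold change was 0.88 (SE 0.11, adjusted p = 0.0036, edgeR), and it was higher in 4 of 4 ISch rats. The sum of both genes was 154, 129, 83.7 and 107 CPM in IS and 83.6, 89.3, 85.8 and 85.3 CPM in ISch, and in this sum the groups overlapped. LOC100360841 (ENSRNOG00000034180), the pseudogene Rpl37-ps5 in RefSeq, had 19.6, 12.9, 11.5 and 16.5 CPM in IS and 4.71, 6.30, 4.00 and 3.24 CPM in ISch, without overlap. Its log2 fold change was -1.74 (SE 0.22, adjusted p = 0.0036, edgeR). AABR07072078.1 (ENSRNOG00000028883), the pseudogene Rpl37a-ps12 in RefSeq, which lies in Mgrn1, had 12.03, 9.49, 10.1 and 7.53 CPM in IS and 3.501, 3.80, 2.63 and 3.13 CPM in ISch. It was lower in every ISch rat (log2 fold change -1.59, SE 0.18, adjusted p = 0.00273, edgeR). LOC100365810 (ENSRNOG00000045885), also a pseudogene, had 26.9, 22.3, 18.5 and 21.3 CPM in IS and 11.5, 10.5, 8.63 and 7.10 CPM in ISch (log2 fold change -1.25, SE 0.16, adjusted p = 0.00405, edgeR). LOC680121 (ENSRNOG00000009920), named Haus8l2 in RefSeq, had 31.3, 26.6, 28.2 and 28.6 CPM in IS and 44.1, 48.0, 51.7 and 49.3 CPM in ISch. It was higher in every ISch rat (log2 fold change 0.75, SE 0.081, adjusted p = 0.00179, edgeR). The adjusted p of LOC100360841, AABR07072078.1, LOC100365810 and LOC680121 stayed under 0.05 in all 17 alternatives. That of Rpl17 did so in 9 of the 17 and in 2 of the 8 fits with 1 library left out, with a range from 1.87e-05 to 0.516, the latter without ISch replicates 1 and 2 (edgeR and DESeq2). That of RGD1359290 was lost in that fit alone, at 0.0991 (range from 4.28e-11, edgeR and DESeq2).

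The remaining genes with such designations were lowly expressed in part. AABR07034315.1 (ENSRNOG00000033603) had 0.248, 0.863, 0.151 and 0.590 CPM in IS, which is 1 to 6 counts, and 2.90, 2.73, 2.25 and 2.61 CPM in ISch, which is 18 to 25 counts. Its log2 fold change was 2.48 (SE 0.37, adjusted p = 0.0132, edgeR), the highest positive value among the 29. AC119603.1 had 1.49, 1.007, 0.606 and 0.886 CPM in IS and 3.14, 2.97, 3.25 and 3.66 CPM in ISch. AC135409.1 had 1.12, 1.007, 1.36 and 1.18 CPM in IS and 3.74, 2.85, 3.75 and 2.72 CPM in ISch. Both were about 3 times as high in ISch, with log2 fold changes of 1.67 (SE 0.27) and 1.47 (SE 0.24). AABR07044509.1 had 2.61, 1.87, 2.27 and 3.10 CPM in IS and 7.24, 5.23, 6.63 and 8.04 CPM in ISch, a log2 fold change of 1.46 (SE 0.21). AC096600.1 had 5.71, 6.18, 5.15 and 5.17 CPM in IS and 9.54, 11.8, 10.3 and 10.1 CPM in ISch, a log2 fold change of 0.90 (SE 0.14). RGD1563601 had 19.9, 15.4, 17.1 and 21.0 CPM in IS and 29.8, 29.7, 28.4 and 28.2 CPM in ISch, a log2 fold change of 0.66 (SE 0.10). In these 6 genes every ISch rat was above every IS rat, with adjusted p-values of 0.0102 to 0.0261 in the last 5 (edgeR). Without ISch replicates 1 and 2, AABR07044509.1 alone of the 6 kept an adjusted p under 0.05, while all 6 met the criterion, with log2 fold changes from 0.62 to 2.37.

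Lower in all ISch rats were 6 more of these genes. AABR07025089.1 had 1.99, 1.73, 2.12 and 2.66 CPM in IS and 0.724, 0.356, 0.625 and 0.627 CPM in ISch, which is 3 to 6 counts. AABR07048253.1 had 7.20, 4.60, 4.09 and 5.90 CPM in IS and 1.45, 2.49, 2.38 and 1.98 CPM in ISch. These were the 2 largest of the 6 differences, with log2 fold changes of -1.83 (SE 0.31) and -1.40 (SE 0.24). AC128792.2 had 10.3, 10.5, 9.08 and 9.74 CPM in IS and 5.19, 4.39, 4.63 and 5.43 CPM in ISch, a log2 fold change of -1.01 (SE 0.14). AABR07031445.1 had 17.2, 22.0, 19.8 and 19.2 CPM in IS and 7.85, 11.6, 11.3 and 9.19 CPM in ISch, a log2 fold change of -0.97 (SE 0.14). AY172581.21 had 21.3, 23.4, 24.7 and 24.9 CPM in IS and 11.0, 11.8, 15.0 and 14.9 CPM in ISch, a log2 fold change of -0.84 (SE 0.12). Its name is that of a sequence record of the rat mitochondrial genome, but it is not among the 13 listed genes, and the annotation at hand does not place it. Of the other 6 tested genes of that name, looked up after the values were seen, AY172581.2 was higher at the criterion (log2 fold change 0.62, SE 0.13) and 5 did not meet it. The last of the 6 genes that were lower in all ISch rats, LOC100363531, had 74.4, 59.7, 53.7 and 65.1 CPM in IS and 43.1, 42.4, 39.0 and 41.8 CPM in ISch, a log2 fold change of -0.61 (SE 0.094). The adjusted p-values of these 6 genes lay between 0.00737 and 0.0345 (edgeR), and without ISch replicates 1 and 2 all were above 0.05, while all 6 met the criterion, with log2 fold changes from -1.74 to -0.65.

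Among the genes with an established name and no copy in question, Bmp3 (ENSRNOG00000002381), a secreted member of the bone morphogenetic protein family that opposes signalling by other members, had 16.3, 17.4, 22.1 and 24.6 CPM in IS and 38.0, 31.6, 44.0 and 42.4 CPM in ISch. Without overlap, its level in ISch was 1.95 times that in IS, a log2 fold change of 0.96 (SE 0.14, adjusted p = 0.0113, edgeR). Its adjusted p was above 0.05 in 3 of the 17 alternatives, with 0.0699 the highest and 1.05e-07 the lowest (edgeR and DESeq2). In FIDch against FID its log2 fold change was -0.60 (SE 0.24), at the criterion in the opposite direction, but the difference between the 2 effects was not shown over all genes (adjusted p = 0.132, edgeR). Prrt2 (ENSRNOG00000029366), a presynaptic membrane protein that takes part in fast transmitter release, had 260.2, 252, 232 and 224 CPM in IS and 184, 191, 198 and 194 CPM in ISch. The ISch rats lay close together below all IS rats, with a log2 fold change of -0.34 (SE 0.060, adjusted p = 0.0455, edgeR). It overlaps Pagr1 in RefSeq's annotation, and with 1 library left out its adjusted p stayed under 0.05 in 1 of 8 fits, that without IS replicate 3, while the alternatives spanned 0.000629 to 0.608 (edgeR and DESeq2). Mis18a (ENSRNOG00000021555), which helps to load the centromeric histone, had 4.09, 2.59, 5.45 and 4.43 CPM in IS and 0.483, 0.238, 0.125 and 0.627 CPM in ISch. Vsig10l (ENSRNOG00000023411) had 12.9, 9.06, 11.8 and 12.4 CPM in IS and 6.16, 5.23, 6.63 and 6.998 CPM in ISch. In both, every ISch rat was below every IS rat, with log2 fold changes of -3.39 (SE 0.38) and -0.88 (SE 0.15) and adjusted p = 0.00235 and 0.0343 (edgeR). For Vsig10l it stayed under 0.05 in 1 of the 8 fits with 1 library left out. Capns1 (ENSRNOG00000048194), the small regulatory subunit of calpains, overlaps Cox7a1 in RefSeq's annotation and had 9 to 13 counts in the IS rats and 0 or 1 in the ISch rats (adjusted p = 0.0036, edgeR), and was not tested in FIDch against FID. Mis18a, Vsig10l and Capns1 met the criterion without ISch replicates 1 and 2 but lost their adjusted p, and Mis18a and Capns1 lost it in no other alternative.

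The 29 genes were followed into the comparisons that share no library with them. In male FIDch against FID, 28 of the 29 were tested, and 25 of these (89.3%) had the same direction, against 46.8% of all genes tested in both. The criterion was met in the same direction by 20 of them and in the opposite direction by 1, Bmp3, against 901 and 897 of the 13795 genes tested in both. Without FIDch replicate 2, 24 of the 28 (85.7%) had the same direction, against 44.1% of all genes, and 18 met the criterion in it. Of the 17 genes with a sequence record, LOC or RGD designation, 16 met the criterion in the same direction. In female ISch against IS, 21 of the 29 were tested, and 10 (47.6%) had the same direction, against 45.5% of all genes. The criterion was met in the same direction by 1 of these, Mt-atp8, and in the opposite direction by RGD1359290 and Rpl17, against 532 and 849 of 13498 genes. LOC680121 had a mean of 34.2 CPM in FID and 52.4 in FIDch, and of 1.48 CPM in female IS and 1.60 in female ISch. LOC100360841 had a mean of 12.5 CPM in FID and 4.49 in FIDch, and of 11.7 CPM in female IS and 12.1 in female ISch. For LOC100360841 the effects in the male and female rats differed (adjusted p = 0.00186, edgeR), and for LOC680121 a difference was not shown (adjusted p = 0.09, edgeR). Mean levels in female and male IS rats were also far apart for RGD1563601 (1.08 and 18.3 CPM), LOC100365810 (0.832 and 22.2) and Mis18a (0.617 and 4.14). AABR07034315.1 was apart in the other direction (4.54 and 0.463 CPM). The part of counting in the comparison with the female rats was not tested.

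**Figure D2:**
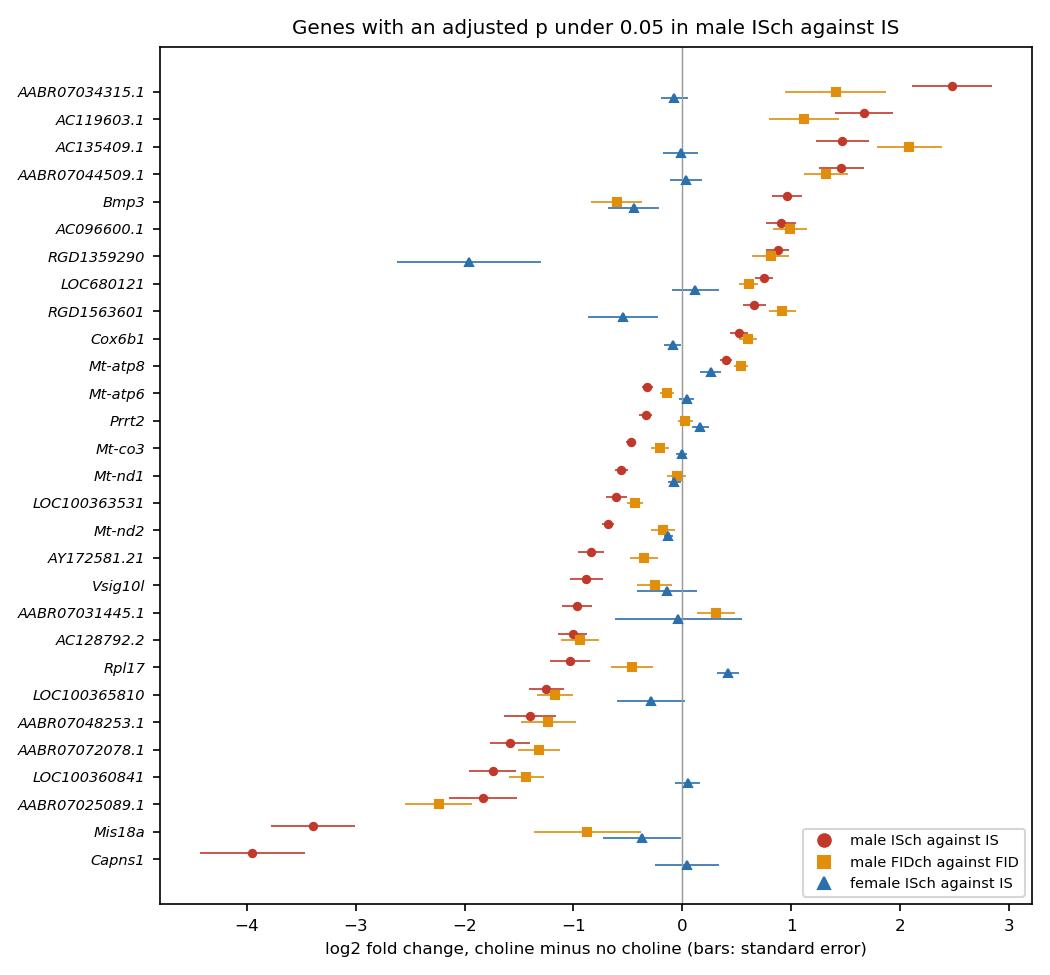
Log2 fold changes with their standard errors of the 29 genes with an adjusted p under 0.05 in male ISch against IS (red circles), in male FIDch against FID (orange squares) and in female ISch against IS (blue triangles). Of the 28 genes tested in FIDch against FID, 25 lie on the same side of 0 as in ISch against IS, and of the 21 tested in female rats 10 do.

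Over the whole comparison, male FIDch against FID had 1810 of 13945 genes at the criterion (13%), and female ISch against IS had 1488 of 14466 (10.3%). The choroid plexus markers were uneven in the FID rats. Ttr ranged from 4.13 to 353 CPM in FID (mean 94.2) and from 0 to 3.67 CPM in FIDch. Enpp2 ranged from 88.1 to 204 CPM in FID and from 89.1 to 116 CPM in FIDch. The part of choroid plexus tissue in the comparison of FIDch with FID was not tested. Of the 1107 male ISch genes at the criterion that were also tested in FIDch against FID, 574 (51.9%, against 46.8% of all genes) had the same direction, 133 at the criterion, with 57 at the criterion in the opposite direction. Without FIDch replicate 2 the share was 44.7%, against 44.1% of all genes. In that fit 115 were at the criterion in the same direction and 90 in the opposite one, against 840 and 1109 over all genes. Of the 1062 that were also tested in female rats, 379 (35.7%, against 45.5% of all genes) had the same direction, 42 at the criterion, with 118 in the opposite direction, against 532 and 849 over all genes. An adjusted p under 0.05 for a difference between the effects of choline in iron-sufficient and formerly iron-deficient males was found for 1 of 14314 genes (0.00699%) in edgeR's quasi-likelihood test, Sec23ip, which is named after its value was seen. The likelihood ratio test gave 86 such genes, DESeq2 131, and fits with 1 library left out 0 to 8. For a difference between the sexes, which cannot be told apart from the batch, it was found for 194 of 15141 genes (1.28%).

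Among the more abundant genes, with a mean of at least 50 CPM, those with the smallest p were mostly mitochondrially encoded. Fry, Opalin and Pde1a were higher at the criterion but had no adjusted p under 0.05. Fry (ENSRNOG00000000894), a large scaffold protein, had 165, 192, 213 and 184 CPM in IS and 266, 258, 224 and 239 CPM in ISch. Its log2 fold change was 0.39 (SE 0.080, adjusted p = 0.105, edgeR), without overlap. Opalin (ENSRNOG00000022386), a membrane protein of myelinating oligodendrocytes, had 82.6, 85.6, 126 and 113 CPM in IS and 160.3, 146, 135 and 159 CPM in ISch, a log2 fold change of 0.57 (SE 0.12, adjusted p = 0.114, edgeR). Pde1a (ENSRNOG00000054212), a phosphodiesterase activated by calmodulin, had 90.3, 115, 103 and 103 CPM in IS and 121, 132, 137 and 135 CPM in ISch, a log2 fold change of 0.35 (SE 0.075, adjusted p = 0.114, edgeR). In all 3 genes every ISch rat was above every IS rat. They met the criterion in each of the 17 alternatives.

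With all 8 libraries, the list of choline uptake and phosphatidylcholine synthesis showed no change that passed the criterion. The list also holds genes that act on ethanolamine, such as Pcyt2 and Etnk1. Of 28 tested genes of choline uptake and phosphatidylcholine synthesis, 0 reached the criterion in the quasi-likelihood test of edgeR, 0 reached an unadjusted p under 0.05, and edgeR's likelihood ratio test and DESeq2 called 0 each. Their median log2 fold change was 0.01, and their summed level was 1530 to 1674 CPM in IS and 1600 to 1664 CPM in ISch. The 2 members with the smallest p were Pcyt2 and Slc44a1. Pcyt2, which makes CDP-ethanolamine, had 92.9, 75.9, 75.4 and 75.0 CPM in IS and 69.5, 75.4, 73.2 and 65.8 CPM in ISch, with IS replicate 1 above the rest. The transporter Slc44a1 had 116, 138, 134 and 142 CPM in IS and 147, 148, 147 and 134 CPM in ISch. Both had overlapping groups, and their log2 fold changes of -0.17 (SE 0.082) and 0.12 (SE 0.070) did not pass. Pcyt2 met the criterion in 1 of the 17 alternatives and Slc44a1 in 0. With 1 library left out, up to 1 member of the list was higher and up to 2 were lower at the criterion.

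In the methionine and folate cycle, 3 of 29 tested genes met the criterion (10.3% against 8.06%), 1 higher and 2 lower, with a median log2 fold change of -0.03. Mtr, the methionine synthase, had 7.82, 13.2, 17.9 and 11.1 CPM in IS and 17.7, 16.2, 15.5 and 16.5 CPM in ISch. IS replicate 1 was the lowest, IS replicate 3 was above all ISch rats, and the log2 fold change was 0.41 (SE 0.19). Cbs, which commits homocysteine to cysteine synthesis, had 77.7, 72.9, 66.6 and 75.4 CPM in IS and 66.2, 66.9, 62.4 and 57.7 CPM in ISch, a log2 fold change of -0.21 (SE 0.073). Aldh1l1, an enzyme of folate metabolism in astrocytes, had 28.3, 25.0, 30.1 and 28.6 CPM in IS and 23.3, 22.3, 22.6 and 26.9 CPM in ISch, a log2 fold change of -0.23 (SE 0.095). In all 3 the groups overlapped, and the criterion held in 1 of the 8 fits that left out 1 library for Mtr, in 6 for Cbs and in 3 for Aldh1l1. None of the 3 had an adjusted p under 0.05 in edgeR or in any of the alternatives.

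Of the cholinergic genes, 17 were tested and 1 met the criterion (5.88% against 8.06% of all genes), with a median log2 fold change of 0.07. This was Chrnb4, a nicotinic receptor subunit, with 0.744, 0.863, 0.757 and 1.03 CPM in IS and 1.45, 2.49, 1.63 and 1.98 CPM in ISch. These are 5 to 7 counts in IS and 12 to 21 in ISch, without overlap, and the log2 fold change was 1.15 (SE 0.30, adjusted p = 0.254, edgeR). It met the criterion in each of the 17 alternatives.

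The enzymes that use methyl groups on DNA likewise gave no call with all 8 libraries. Of 20 tested writers, erasers and readers of DNA methylation, 0 reached the criterion and 0 an unadjusted p under 0.05 in the quasi-likelihood test of edgeR, and the likelihood ratio test and DESeq2 called 0 each. With 1 library left out, up to 1 member was higher and 0 were lower. The glycosylase Tdg had 50.2, 62.3, 51.3 and 50.8 CPM in IS and 46.6, 44.7, 51.4 and 49.2 CPM in ISch. Its groups overlapped. Of 23 genes of H3K9 methylation, 1 was higher at the criterion (4.35% against 8.06% of all genes), Cbx5, which encodes a heterochromatin protein, with a log2 fold change of 0.31 (SE 0.13), and it missed the criterion without IS replicate 1, where 0 members of the list met it. With each library left out in turn, 0 to 3 members of this list were higher and 0 to 1 lower.

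**Figure D3:**
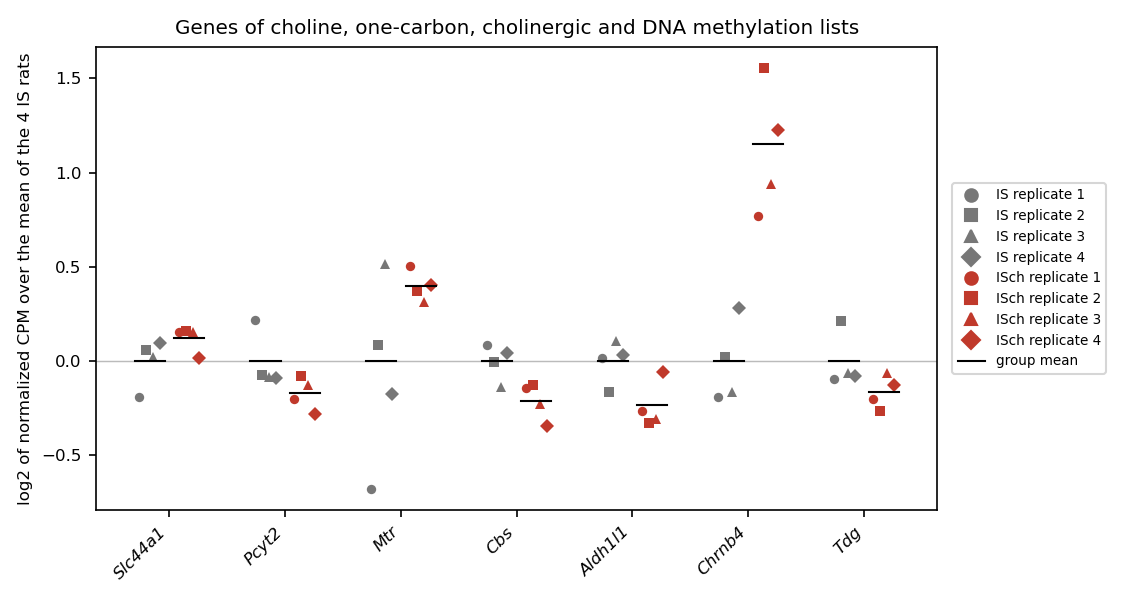
Levels of the genes with the smallest p in the lists of choline uptake (Slc44a1, Pcyt2), the one-carbon cycle (Mtr, Cbs, Aldh1l1), cholinergic signalling (Chrnb4) and DNA methylation (Tdg), as the log2 of normalized CPM over the mean of the 4 IS rats; grey symbols are IS rats, red symbols are ISch rats and black lines are group means. The groups are apart in Chrnb4 and overlap in the other 6 genes.

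Among 42 tested genes of BMP and TGF-beta signalling, 3 were higher and 1 was lower at the criterion (9.52% against 8.06% of all genes), with a median log2 fold change of 0.02. Beside the ligand Bmp3, these were Inhbb, a subunit of activins and inhibins, with a log2 fold change of 0.40 (SE 0.11), the activin receptor Acvr2b, with 0.59 (SE 0.23), and the co-receptor Tgfbr3, with -0.23 (SE 0.094). Inhbb ranged from 9.49 to 11.9 CPM in IS and from 13.7 to 14.8 CPM in ISch, and kept the criterion whichever library was left out. Acvr2b and Tgfbr3 kept it in 5 and 3 of these 8 fits. Over these fits, 2 to 8 members of the list were higher and 0 to 3 lower.

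In Grin2a, Grm5, Shisa6, Pclo, Rims1 and Kcnh7, which were higher in ISch at the criterion, IS replicate 1 had the lowest value and ISch replicates 1 and 2 the highest. The shares of the synaptic and channel lists at the criterion, 4.76% to 11.1%, lay near the 8.06% of all genes. Of 36 tested glutamate receptor genes, 3 were higher and 1 was lower at the criterion (11.1%), and the median log2 fold change was 0.09. Grin2a, an NMDA receptor subunit, had 56.6, 110, 185 and 141 CPM in IS and 239, 221, 158 and 130.0 CPM in ISch. The groups overlapped, and the log2 fold change of 0.61 (SE 0.28) was 0.22 without ISch replicates 1 and 2. Grm5, a metabotropic receptor, had 80.8, 127, 141 and 138 CPM in IS and 152, 148, 145 and 147 CPM in ISch, a log2 fold change of 0.29 (SE 0.13), and Shisa6, an AMPA receptor partner, had one of 0.37 (SE 0.16). Grm4, a presynaptic metabotropic receptor, was lower with -0.41 (SE 0.14). Without IS replicate 1, 0 of the glutamate receptor genes were higher and 1 was lower in edgeR's test. With each library left out in turn, 0 to 7 were higher and 0 to 2 lower.

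Of 47 genes of synaptic vesicle release, 3 were higher and 0 were lower at the criterion (6.38%), and 6 had an unadjusted p under 0.05 in edgeR's test. The active zone scaffold Pclo had 134, 180, 290 and 186 CPM in IS and 341, 311, 230 and 229 CPM in ISch, a log2 fold change of 0.49 (SE 0.20). Rims1, another active zone protein, had a log2 fold change of 0.24 (SE 0.089), and the synaptotagmin Syt6 one of 0.33 (SE 0.13). Without ISch replicates 1 and 2 these were 0.21, 0.13 and 0.13, and none of the 3 met the criterion. The list then had 1 higher and 1 lower member, and without IS replicate 1 it had 1 higher. With each library left out in turn, it had 0 to 5 higher and 0 to 1 lower members. In female rats Rims1 was lower in ISch (log2 fold change -0.30, adjusted p = 0.0103, edgeR), and its effects in the 2 sexes differed (adjusted p = 0.0159, edgeR). Of 58 potassium channel subunits, 4 were higher and 1 was lower (8.62%), with a median log2 fold change of 0.02. The largest of these changes was that of Kcnh7, with 7.44, 12.1, 19.2 and 12.8 CPM in IS and 29.7, 26.3, 19.4 and 17.7 CPM in ISch, a log2 fold change of 0.86 (SE 0.24) and 0.53 without ISch replicates 1 and 2. Kcnk9 (0.37, SE 0.16) was higher and the channel-interacting protein Kcnip3 (-0.26, SE 0.11) was lower on the log2 scale. Without IS replicate 1, 1 subunit was higher and 1 was lower, and 0 were higher without ISch replicates 1 and 2 in edgeR's test. With each library left out in turn, 1 to 11 subunits were higher and 0 to 1 lower. In the list of GABA receptors and synthesis, 1 of 21 genes met the criterion (4.76%), the receptor subunit Gabrg3 (0.68, SE 0.29, on the log2 scale), which kept the criterion in 3 of the 8 fits with 1 library left out and missed it without ISch replicates 1 and 2.

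**Figure D4:**
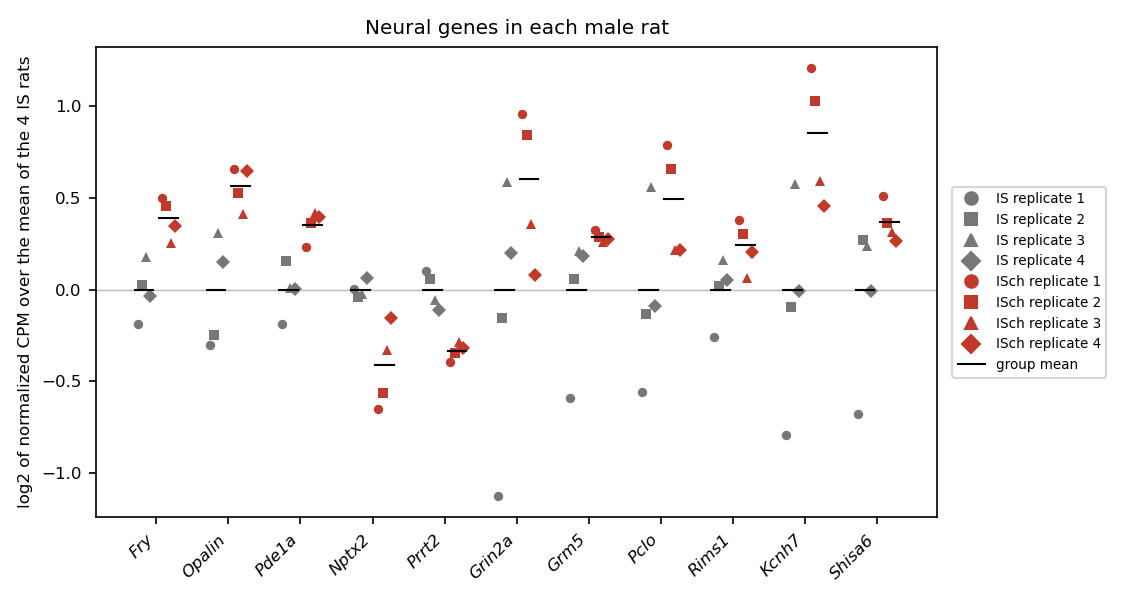
Levels of 11 neural genes in each male rat, as the log2 of normalized CPM over the mean of the 4 IS rats; grey symbols are IS rats, red symbols are ISch rats and black lines are group means. IS replicate 1 is the lowest in Fry, Opalin, Pde1a, Grin2a, Grm5, Pclo, Rims1, Kcnh7 and Shisa6, and ISch replicates 1 and 2 are the highest in Fry, Grin2a, Grm5, Pclo, Rims1, Kcnh7 and Shisa6.

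Of 27 tested immediate early genes, 0 were higher and 3 were lower at the criterion (11.1%) in edgeR's test, the same 3 as had an unadjusted p under 0.05, and the median log2 fold change was -0.02. Over all genes, 8.06% met the criterion in either direction and 3.54% were lower. Nptx2, a secreted pentraxin that gathers AMPA receptors, had 99.0, 96.2, 97.2 and 103 CPM in IS and 63.1, 66.9, 78.7 and 88.8 CPM in ISch. Every ISch rat was below every IS rat, with a log2 fold change of -0.41 (SE 0.095, adjusted p = 0.156, edgeR) that was -0.24 without ISch replicates 1 and 2. The transcription factor genes Fosl1 (-0.53, SE 0.19) and Ier5 (-0.24, SE 0.099) were the other 2, on the log2 scale. Both missed the criterion without ISch replicates 1 and 2 (-0.37 and -0.12), where 1 gene of the list was higher and 1 was lower. Of 18 neurotrophin and growth factor genes, 1 was higher, Igf2r (0.25, SE 0.074), and 1 was lower, which is 11.1%.

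Of 72 tested ribosomal protein genes, 14 met the criterion (19.4%), 5 higher and 9 lower, with a median log2 fold change of -0.06. Over all genes, 8.06% met it, 4.52% higher and 3.54% lower. Their summed level was 5450 to 7472 CPM in IS and 5836 to 6287 CPM in ISch, so that the groups overlapped. Beside Rpl17, Rpl21 was lower, with 133, 111, 109 and 114 CPM in IS and 85.1, 96.0, 80.7 and 84.0 CPM in ISch (log2 fold change -0.43, SE 0.079, adjusted p = 0.0529, edgeR). Rpl36 was lower too, with -0.35 (SE 0.085), and Rpl7a was higher, with 0.72 (SE 0.16). The symbols Rpl21 and Rpl7a are carried by 4 and 2 genes of the table. Without IS replicate 1, 12 ribosomal protein genes were higher and 7 were lower, and 1 was higher and 10 were lower without ISch replicates 1 and 2, so that the balance of directions depended on the libraries used.

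In 4 further lists 0 members reached the criterion in the quasi-likelihood test of edgeR. These were 20 genes of opioid and dopamine signalling, 24 of iron homeostasis, 30 splicing kinases and SR proteins, and 21 clock genes, with median log2 fold changes of 0.01, -0.07, 0.00 and 0.01. At an unadjusted p under 0.05 there were 1, 0, 0 and 0 genes, and the likelihood ratio test and DESeq2 each called 0, 1, 0 and 0 at the criterion. The members with the smallest p in edgeR's quasi-likelihood fit, all with overlapping groups, were Maob (-0.17, SE 0.064) and Oprl1 (0.14, SE 0.071), Heph (-0.68, SE 0.31) and Steap3 (-0.26, SE 0.13), Srsf2 (-0.12, SE 0.062) and Son (0.18, SE 0.093), and Clock (0.18, SE 0.096) and Csnk1d (-0.10, SE 0.054), on the log2 scale. Heph was the iron gene that the likelihood ratio test and DESeq2 called, and it met the criterion in 7 of the 17 alternatives, Maob in 3, Steap3 in 2 and Son and Clock in 1 each. Ireb2, which encodes an iron regulatory protein, had 34.7, 48.8, 55.6 and 51.2 CPM in IS and 47.4, 50.1, 46.8 and 50.8 CPM in ISch, a log2 fold change of 0.04 (SE 0.12). The tankyrase Tnks had 47.3, 86.2, 102.2 and 84.7 CPM in IS and 106.6, 103, 97.1 and 99.4 CPM in ISch, a log2 fold change of 0.35 (SE 0.17) that did not meet the criterion, and met it in 6 of the 17 alternatives, with IS replicate 1 again the lowest. Of 30 heat shock proteins and chaperones, 1 was higher (3.33% against 8.06% of all genes), Hspb1 (0.71, SE 0.31, on the log2 scale), which was at 0.23 and missed the criterion without ISch replicates 1 and 2.

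Markers of the hippocampal cell types were present in all libraries. In bulk tissue, fewer cells of a type and less RNA per cell cannot be told apart. Of 9 excitatory neuron markers, led by Slc17a7 with 2307 to 2533 CPM in IS and 2269 to 2379 CPM in ISch, 0 met the criterion or had an unadjusted p under 0.05 in edgeR's test, and 0 were called by the likelihood ratio test or DESeq2. The same held for 13 microglia markers, whose sum was 447 to 492 CPM in IS and 459 to 487 CPM in ISch, led by Ctss. The smallest p in these 2 lists were those of Tbr1 (0.22, SE 0.12) and Slc17a7 (-0.07, SE 0.043), and of Tmem119 (-0.32, SE 0.17) and P2ry12 (-0.39, SE 0.22), with overlapping groups. P2ry12 met the criterion in 4 of the 17 alternatives, Tmem119 in 3, Tbr1 in 1 and Slc17a7 in 0. With 1 library left out, up to 2 excitatory neuron markers were higher. Up to 1 microglia marker was then higher and up to 2 were lower. At the criterion were 8.06% of all genes, and the shares of the marker lists rest on few members. Of 12 interneuron markers, 2 were lower (16.7%), Htr3a (-0.57, SE 0.15) and Lamp5 (-0.31, SE 0.11). Among the fields, 1 of 7 CA1 markers was higher (14.3%), Gpr161 (0.31, SE 0.11), 1 of 11 CA2 and CA3 markers was higher, Elavl4 (0.22, SE 0.087), and 1 was lower, Homer3 (-0.22, SE 0.083), together 18.2%. Of 10 markers of dentate granule cells, 5 had a positive and 5 a negative log2 fold change, 1 was higher at the criterion, Npnt (0.59, SE 0.27), and 2 were lower, Calb1 (-0.22, SE 0.079) and C1ql2 (-0.23, SE 0.093), together 30%. None of them met the criterion without ISch replicates 1 and 2 in edgeR's test. In female ISch against IS, 9 of 11 markers of this list were higher at the criterion, against 743 of all 14466 genes, with a median log2 fold change of 0.39. Of these, Calb1 and C1ql2 were higher by log2 fold changes of 0.34 and 0.51 (adjusted p = 0.049 and 0.0103, edgeR), and for both the effects in the 2 sexes differed (adjusted p = 0.0249 and 0.00698, edgeR).

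Of 14 astrocyte markers, Slc4a4 was higher (0.26, SE 0.12) and Aldh1l1 was lower (14.3% in all, against 8.06% of all genes), and of 16 oligodendrocyte markers Opalin and Ermn (0.21, SE 0.085) were higher (12.5%), while 10 of the 16 had a negative log2 fold change and the median was -0.05. Homer3, Calb1, Cspg4, Col1a1 and Rasd2 were at -0.11, -0.12, 0.06, -0.27 and 0.17 without ISch replicates 1 and 2 and missed the criterion, as did C1ql2, Npnt, Gpr161, Elavl4, Lamp5, Slc4a4, Aldh1l1, Aldh1a2 and Hba-a2. Of 10 precursor markers, Cspg4 (0.23, SE 0.10) was higher and Cspg5 (-0.28, SE 0.090) and Olig1 (-0.23, SE 0.077) were lower (30% in all). Of 15 endothelial and pericyte markers, 2 were lower (13.3%), Kcnj8 (-0.67, SE 0.20) and the tight junction protein Cldn5, which had 64.5, 47.2, 50.7 and 51.2 CPM in IS and 45.9, 44.3, 44.5 and 38.6 CPM in ISch. Their sum was 449.5 to 524 CPM in IS and 425 to 483 CPM in ISch.

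Tissue next to the hippocampus and blood could also add RNA. Of 11 markers of meninges and fibroblasts, 3 were lower (27.3%, against 8.06% of all genes in either direction and 3.54% lower), Col1a1 (-0.44, SE 0.16), Ptgds (-0.23, SE 0.087) and Aldh1a2 (-0.66, SE 0.27), with a median log2 fold change of -0.23 and a sum of 239.5 to 282 CPM in IS and 223 to 241 CPM in ISch. Of 5 blood genes, 1 was lower (20%), Hba-a2 (-0.47, SE 0.21), and the blood genes summed to 88.0 to 197 CPM in IS and 82.9 to 132 CPM in ISch. Of 14 choroid plexus markers, 2 passed the filter on low counts, Enpp2 and Ttr, and 0 were called in edgeR's test, at an unadjusted p under 0.05, in the likelihood ratio test or in DESeq2. Ttr, the most specific of them, had 6 to 16 counts in IS and 4 to 30 in ISch, and Otx2 had 0 counts in all 8 rats. The log2 fold change of Ttr was -0.18 (SE 0.53). Without ISch replicates 1 and 2 it was -1.39, and Ttr was lower at the criterion. Of 7 ependymal markers, 1 was higher (14.3%), Tmem212 (0.76, SE 0.28). Of 12 striatal markers, Rasd2 was higher (0.27, SE 0.090) and Syndig1l was lower (-1.21, SE 0.29), together 16.7%. Of 11 markers of thalamus and habenula, Chrnb4 was higher (9.09%), which is also a cholinergic gene, and of 11 neocortical markers Lamp5 was lower (9.09%), which is also the interneuron gene, while 9 of the 11 had a positive log2 fold change. The thalamic and habenular markers summed to 102.4 to 131 CPM in IS and 120.5 to 138 CPM in ISch, led by Plekhg1. The part of cell composition and of neighbouring tissue in the differences between the groups was not tested.

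**Figure D5:**
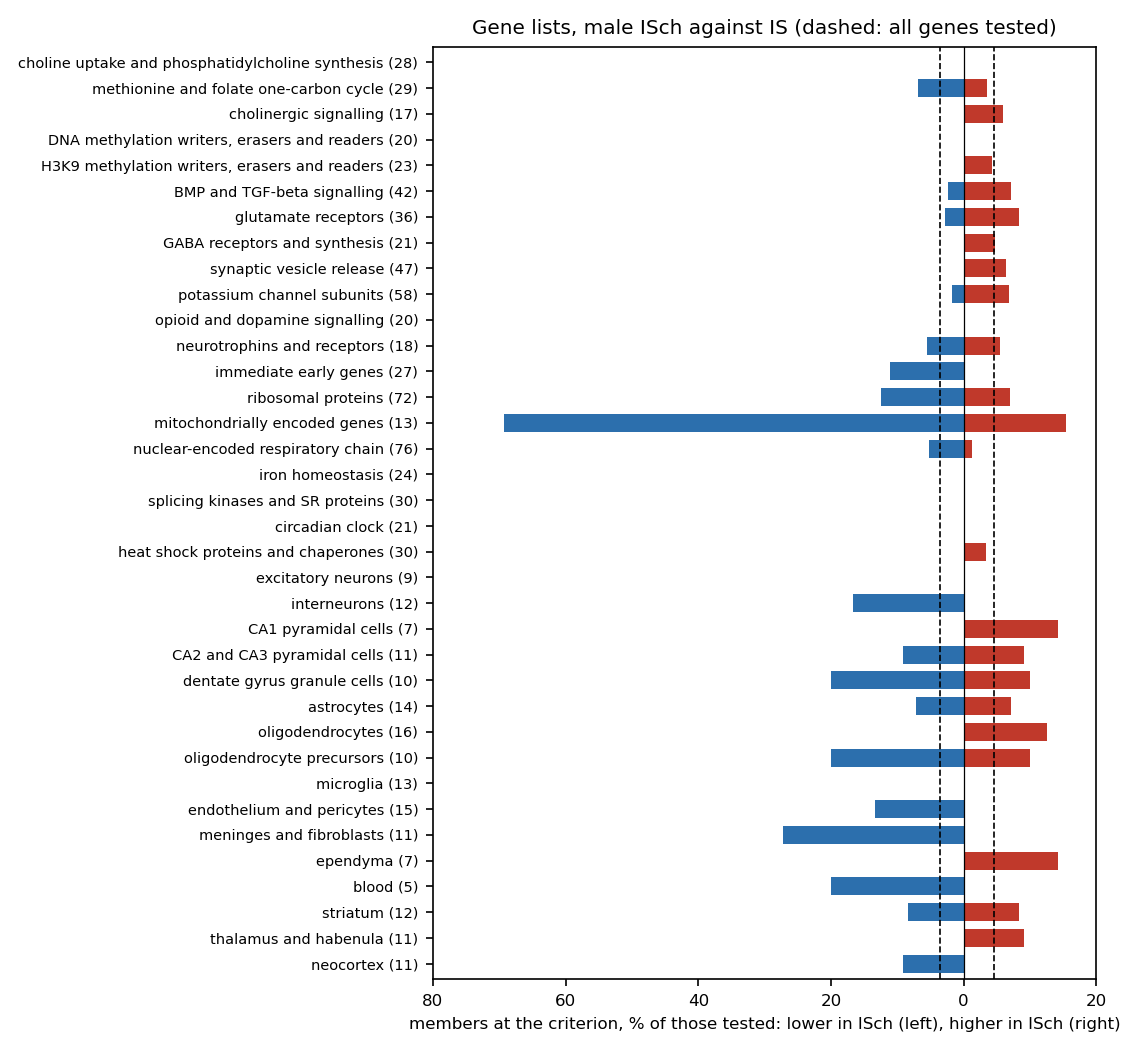
Share of the tested members of each gene list (number tested in parentheses) that were higher (red, right) or lower (blue, left) in male ISch than in IS at the criterion; the dashed lines are the shares over all genes tested, 4.52% higher and 3.54% lower. The mitochondrially encoded genes reach furthest, with 9 of 13 lower and 2 of 13 higher; the choroid plexus list, with 2 genes tested, is not drawn.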

How the data were processed

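Per the submitters' processing notes and the methods of the study, the authors checked the reads with FastQC, trimmed them with Trimmomatic, aligned them to Rnor_6.0 with HISAT2 and counted them per gene with featureCounts (Subread). They deposited raw counts for 32883 genes in each library, without normalization. Strand and multi-mapping settings are not given in the sources used here. Symbols and identifiers are those of the tables, in which 2637 genes repeat a symbol.

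Here, counts were analysed with edgeR 4.0.16 in R 4.3.3 (filterByExpr, TMM, glmQLFit and glmQLFTest), each pair of groups fitted alone and each interaction in 1 model of 16 libraries. Adjusted p-values are Benjamini-Hochberg values over all genes tested. DESeq2 1.42.0 and the other alternatives are given in the closing section. The scripts were tested on counts simulated for male ISch against IS, where 3.94% of the unchanged genes met the criterion. Replicates differed by more than counting noise in each of 12 pairs (chi-square per gene, 2.02 to 11), so none is a copy of another.

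Named genes are those with an adjusted p under 0.05; the 5 with the smallest p in each direction among genes at the criterion with at least 50 CPM; in each list up to 4 members at the criterion with the smallest p, or otherwise 2; and Bmp3, Tnks and Ireb2. The members and lists were chosen with earlier results of these data known. Some genes that this rule names are not reported here. Listed genes that are missing from the tables were not analysed here. RefSeq's GRCr8 annotation served for names and overlaps.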

Additional observations from a re-analysis of the deposited data

Results flagged for a closer look

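In 230 groups of 4 rats, 19 held a rat apart from the other 3 (Dixon's test at 95%), which is 8.26%, and chance gives about 1 in 20. All 230 groups come from the same 8 rats and are not independent, so no conclusion is drawn from the 2 shares. In normalized CPM, IS replicate 1 was apart in Pcyt2 (92.9) and Clock (75.8), IS replicate 2 in Tdg (62.3) and Tmem212 (0.863), and IS replicate 4 in Homer3 (74.5), Mt-nd6 (1216) and Mt-nd4 (311). ISch replicate 1 was apart in Grm4 (9.66), Steap3 (10.1), Mt-nd4 (376), Mt-nd5 (4389) and Mt-cyb (8149), and ISch replicate 2 in Mt-atp8 (641). ISch replicate 4 was apart in Capns1 (0 counts, against 1 in each of the other 3), Slc44a1 (134), Rpl36 (19.6), Col1a1 (14.2), Hba-a2 (53.8) and Rasd2 (78.6). For Capns1 this rests on a difference of 1 count.

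For 22 of the 115 genes named, the effect of choline differed between female and male iron-sufficient rats at an adjusted p under 0.05 in edgeR's interaction test (194 of all 15141 genes, 1.28%), and for 0 of the 115 did it differ between formerly iron-deficient and iron-sufficient males. Most of the 115 were named for their effect in the same male libraries that enter this test, so the 2 shares are not on the same footing. Sex and sequencing batch cannot be told apart in the former. The differences, female minus male log2 fold change, were positive for Capns1 (4.08), Mis18a (3.05), LOC100360841 (1.79), Rpl17 (1.45), C1ql2 (0.74), Aldh1l1 (0.59), Calb1 (0.56), Mt-nd2 (0.55), Prrt2 (0.50), Mt-nd1 (0.48), Cspg5 (0.47), Mt-co3 (0.46) and Rpl21 (0.42). They were negative for AABR07034315.1 (-2.57), AC135409.1 (-1.497), AABR07044509.1 (-1.43), Bmp3 (-1.41), RGD1563601 (-1.21), Opalin (-0.65), Cox6b1 (-0.61), Rims1 (-0.55) and Fry (-0.51). The fitted value of Capns1 rests on 0 or 1 counts in the male ISch rats and is no bound. Mis18a, RGD1563601 and AABR07034315.1 also had mean levels far apart in female and male IS rats.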

How the results depend on the processing

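The number of genes at the criterion in male ISch against IS, 1125, was 815 to 1811 with each library left out in turn and 679 without ISch replicates 1 and 2, and otherwise 887 (DESeq2) to 1606 (all genes with at least 1 count). The 29 genes with an adjusted p under 0.05 became 67 with all genes of at least 1 count, 112 with the likelihood ratio test, 70 with DESeq2, 15 with the replicate number as a block, 12 without ISch replicates 1 and 2, and 12 to 39 with each library left out. Of the 29, 11 kept an adjusted p under 0.05 in all 8 of the latter fits and 20 lost it without ISch replicates 1 and 2, while all 29 met the criterion in all 17 alternatives. The higher mitochondrially encoded genes numbered 1 without ISch replicates 1 and 2 and 1 to 2 with each library left out. The female and FIDch counts stayed within 1.5 times.

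The interaction with iron gave 3 genes with all genes of at least 1 count, 86 with the likelihood ratio test, 131 with DESeq2, 0 with the replicate block and 0 to 8 with each library left out; at an unadjusted p under 0.05 edgeR's test gave 2210. The interaction with sex and batch gave 430, 447 and 71 with the likelihood ratio test, DESeq2 and the block, and 87 to 454 with each library left out. The causes were not tested.

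The replicate numbers did not pair the rats: residuals of same-numbered IS and ISch libraries correlated at -0.11, -0.01, -0.06 and -0.02. Of the 93 named genes at the criterion, 45 met it in all 17 alternatives. Log2 fold changes turned sign in genes that were not called with all 8 libraries: P2ry12 (0.0014 without ISch replicates 1 and 2), Mt-nd4l (0.0016 with library size alone and 0.00087 without ISch replicates 1 and 2, -0.083 to 0.067 with each library left out), Ttr (-1.08 to 0.094 with each library left out) and Ireb2 (-0.086 to 0.13 likewise). Of these, P2ry12 met the criterion in 4 of the 17 alternatives and Ttr in 2. One of the latter was the fit without ISch replicates 1 and 2, where Ttr was at -1.39. With 4 rats a group, a gene that did not pass is not shown to be unchanged.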
